A study of Mus musculus with 2 samples.

Results

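The genes of the proteasome, the protease complex that degrades ubiquitin-tagged proteins in the cytosol and nucleus, were examined in 2 RNA-seq libraries of mouse liver. Members were all gene symbols that begin with Psm, a letter from a to f and a digit, without the inducible catalytic subunits Psmb8 and Psmb9. That gave 43 of the 22609 symbols in each file. Of these, 40 had at least 50 reads summed over both libraries, the minimum for giving a ratio, as did 11411 of all symbols. The other 3 were Psma8 (10 and 11 reads) and Psmb11 (0 and 0), tissue-restricted core subunits, and Psmc3ip (5 and 9), which shares the start of the name but encodes a meiotic recombination cofactor and no subunit. The label "constitutive" holds for most members but not for Psmb10, Psme1 and Psme2, whose genes are known to be induced by interferon. Psmb10 is described apart from the core, and Psme1 and Psme2 are counted among the activators.

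The study asked how loss of Lrg1, which encodes a secreted leucine-rich glycoprotein, relates to liver gene expression in obesity. Liver came from male mice of strain C57BL/6, and both groups received the same high-fat diet, in which fat supplied 45% of calories, for 16 weeks starting at an age of 8 weeks. There was 1 library from wild type mice (C57BL/6J in the protocol) and 1 labelled Lrg1 knockout, which the protocol describes as a whole-body knockout. Whether a library holds 1 mouse or a pool is not stated in the labels. A single library per genotype leaves no replicates and no test between genotypes, so each difference compares these libraries only, and the 95% intervals given cover counting error only.

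The libraries held 23311906 and 18738397 reads in genes, so that 1 read is worth 0.0441 and 0.0519 CPM (the read count relative to library size, adjusted by the trimmed mean of M-values, TMM), and a count of 0 allows up to 0.132 and 0.156 CPM (3 counts). Lrg1 itself had 26958 and 17572 reads in the wild-type library and the one labelled Lrg1 knockout, a ratio of 0.766 (0.751 to 0.780), so the level of the targeted gene goes against the label. Gene counts do not show which part of Lrg1 the reads cover, and each direction below is that of a library labelled Lrg1 knockout. Hepatocyte markers were abundant in both libraries, with 8 of 8 detected and summed levels of 137473 and 120678 CPM. Fewer cells of a type and less RNA per cell cannot be told apart in such bulk tissue.

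A proteasome consists of a barrel, the core particle or 20S, capped by a regulatory particle, the 19S. The barrel is built from alpha subunits, which form its outer rings and gate, and beta subunits, some of which carry the proteolytic sites inside. The regulatory particle has a base, whose ATPases unfold the substrate and open the gate, and a lid, which removes the ubiquitin chain. Other caps such as PA28 and PA200 open the barrel without ATP. In most cells these subunits are made in matched amounts, and the transcription factor NFE2L1 raises their genes together when proteasome activity falls.

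The proteasome genes were nearly level between the libraries. The median log2 ratio of the library labelled Lrg1 knockout to wild type was -0.004 over the 40 measured members, beside -0.01 over all 11411 measured genes. Of the members, 34 of 40 had a log2 ratio within 0.2 of 0, where 48.9% of measured genes did. Among the 8388 measured genes whose summed reads lay in the range of the members, 212 to 6841, the share was 52.6%. The spread was also narrower, with an SD of 0.16 over members and 0.49 over all measured genes (0.43 in the same read range). No member was 2-fold apart (4.20% of measured genes were, in either direction), and none was 1.5-fold apart (12.8%). With a log2 ratio of 0.32 as the smallest difference counted here, 0 members were lower by at least that much (16.7% of measured genes) and 2 were higher (15.0%), Psma5 and Psme2. The intervals of 26 members included no difference (51.4% of measured genes), 6 lay below it (26.6%) and 8 above it (22.0%). These intervals take the TMM scaling as fixed, and total-count scaling shifts each log2 ratio up by 0.08. Of those below, Psma4, Psmc4, Psmd1, Psmd8 and Psmd13 had upper ends within that distance of 0, so these counts follow the scaling too. In number, 22 members lay below 0 (51.7% of measured genes) and 18 above (48.3%). This split follows the scaling, since with total-count scaling 11 lay below 0 and 29 above, when 40.3% of all measured genes lay below 0. Members within 0.2 of 0 then numbered 31 of 40.

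**Figure D1:**
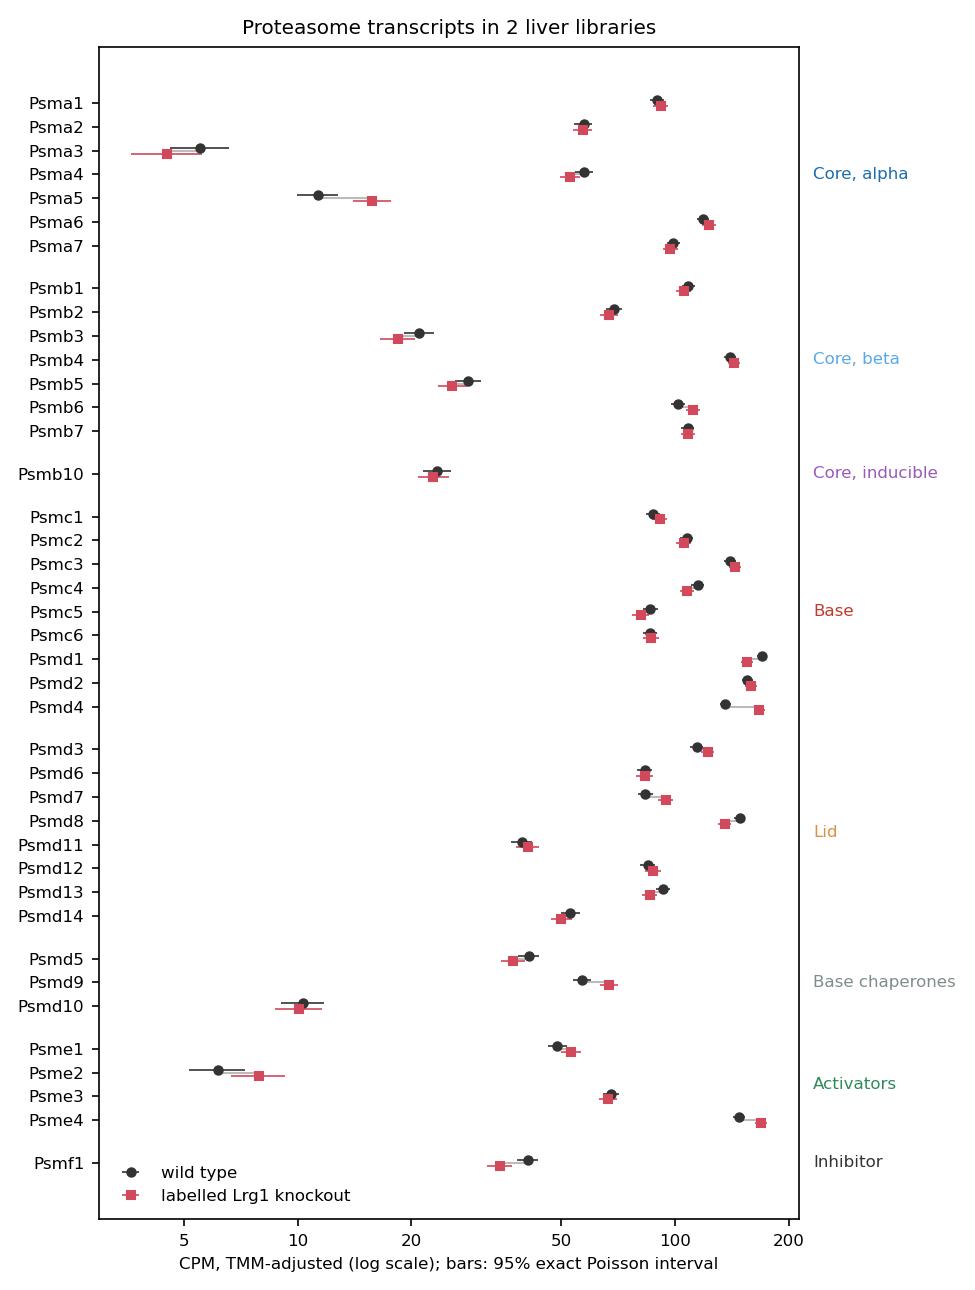
Level of each measured proteasome gene in CPM (log axis) in the wild-type library (black circles) and the library labelled Lrg1 knockout (red squares), grouped by role, with 95% exact Poisson intervals. Most pairs of points nearly coincide, and Psma3, Psma5, Psme2 and Psmd10 have the lowest levels.

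Summed over subunits, the parts of the complex stood in nearly the same proportion in both libraries. The 14 constitutive core genes together had 1015 CPM against 1021 CPM (wild type first, as in all pairs of values below), a ratio of 1.01 (0.987 to 1.03). The 9 base genes had 1082 and 1097 CPM (ratio 1.01, 0.995 to 1.03), and the 8 lid genes 698.7 and 698.6 CPM (ratio 1.0, 0.977 to 1.02). The intervals of these sums included no difference for core, base and lid. The median log2 ratios were -0.02 for core, 0.01 for base and 0.02 for lid genes, and the sign of the core median followed the scaling, at 0.07 with total counts. The 4 activators had 270.5 and 296 CPM, a ratio of 1.10 (1.06 to 1.14), and the interval lay above 1. All 40 members together had 3239 and 3285 CPM, a ratio of 1.014 whose interval, 1.004 to 1.025, lay just above 1. Without the TMM adjustment they took 0.315% of reads in genes and 0.338%.

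The stretch before the start site is shown for 5 members, taken from different places in the range of ratios. They were the core subunit Psmb6, the base subunits Psmd4 and Psmd2, the base chaperone Psmd9 and the inhibitor Psmf1. Psmd4, Psmd9 and Psmf1 had log2 ratios more than 0.2 from 0. Sequences are from RefSeq on GRCm38.p6, the build of that table and not of the counts, and give the 250 bases before the annotated start, 5′ to 3′ on the gene's strand, where GENCODE M21 annotates no exon. Capitals mark 3 motifs searched on both strands: TGACNNNGC, the core of the antioxidant response element bound by NFE2L1 and NFE2L2, CCAAT, bound by NF-Y, and CCGGAAG, an ETS factor motif.
Psmb6 (chr11:70525107-70525356, + strand): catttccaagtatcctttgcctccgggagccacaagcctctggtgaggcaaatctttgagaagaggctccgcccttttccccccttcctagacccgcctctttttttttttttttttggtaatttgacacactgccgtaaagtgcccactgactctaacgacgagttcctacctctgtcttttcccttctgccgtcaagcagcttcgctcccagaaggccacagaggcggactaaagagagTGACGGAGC
Psmd9 (chr5:123227940-123228189, + strand): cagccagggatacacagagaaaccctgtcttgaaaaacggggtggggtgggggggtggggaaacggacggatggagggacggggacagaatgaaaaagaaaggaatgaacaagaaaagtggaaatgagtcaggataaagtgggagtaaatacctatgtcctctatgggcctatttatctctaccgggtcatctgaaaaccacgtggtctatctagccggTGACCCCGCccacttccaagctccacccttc
Psmd4 (chr3:95042615-95042864, - strand): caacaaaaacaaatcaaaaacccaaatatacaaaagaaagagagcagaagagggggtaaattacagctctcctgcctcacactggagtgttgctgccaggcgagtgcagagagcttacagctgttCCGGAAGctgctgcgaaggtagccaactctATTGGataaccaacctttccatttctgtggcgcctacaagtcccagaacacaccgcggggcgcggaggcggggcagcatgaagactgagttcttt
Psmd2 (chr16:20651402-20651651, + strand): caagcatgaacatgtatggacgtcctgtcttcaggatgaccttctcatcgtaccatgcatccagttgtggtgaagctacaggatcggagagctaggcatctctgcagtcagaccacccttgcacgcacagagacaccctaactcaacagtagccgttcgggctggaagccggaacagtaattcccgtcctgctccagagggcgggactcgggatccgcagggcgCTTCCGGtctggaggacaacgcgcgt
Psmf1 (chr2:151741311-151741560, - strand): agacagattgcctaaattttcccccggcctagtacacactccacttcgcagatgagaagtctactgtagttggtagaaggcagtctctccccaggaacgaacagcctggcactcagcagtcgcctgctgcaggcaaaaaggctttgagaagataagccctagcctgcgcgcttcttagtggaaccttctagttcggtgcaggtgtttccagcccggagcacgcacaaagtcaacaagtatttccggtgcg
Psmb6 and Psmd9 each hold 1 match to TGACNNNGC, whose first base lies 9 and 31 bases before the start. Psmd4 holds an ETS match and a CCAAT match on the other strand, Psmd2 an ETS match on the other strand, and Psmf1 none of the 3.

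The table held promoters for 34 measured members, with 37 windows of 250 bases in all. The ETS motif lay in 32.4% of the members' windows and in 6.91% of all 32851 windows. Those windows cover all 27025 genes of the promoter table, measured or not, and windows of measured genes alone were not set beside the members. The windows also differ in base composition, with a median GC content of 57.6% over 39 windows of the 36 members in the table, measured or not, and 52.4% over all, and its part in this contrast was not tested. CCAAT lay in 32.4% and 33.8%, and TGACNNNGC in 13.5% and 10.2%. The 5 measured members with TGACNNNGC were Psmb5, Psmb6, Psmc6, Psmd12 and Psmd9, and their log2 ratios ran from -0.14 (Psmb5) to 0.24 (Psmd9). A match describes the letters in the window and does not show that a factor bound there.

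Of the alpha subunits of the core, 5 of 7 lay within 0.2 of 0 (48.9% of measured genes). Psma6 had 2683 and 2373 reads, or 118 and 123 CPM, and Psma7 had 2243 and 1873 reads, or 99.0 and 97.1 CPM. Psma1 (89.7 and 91.6 CPM) and Psma2 (57.2 and 56.9 CPM) were as close, and the intervals of all 4 ratios included no difference. Psma4, with 1300 and 1016 reads (57.4 and 52.7 CPM), had a ratio of 0.918 whose interval, 0.845 to 0.997, lay just below 1.

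Psma5 stood highest of all members. It had 256 reads in the deeper wild-type library against 304, or 11.3 CPM (9.96 to 12.8) and 15.8 CPM (14.0 to 17.6), and these intervals did not overlap. The ratio was 1.39 (1.18 to 1.65), a log2 ratio of 0.48. Psma3 stood lowest, with 125 and 87 reads, 5.52 CPM (4.59 to 6.57) and 4.51 CPM (3.61 to 5.57), and its ratio of 0.818 had an interval that included no difference (0.615 to 1.08). Both genes encode subunits that every 20S particle needs, yet they had fewer reads than the other alpha genes, and both share most of their coding sequence with pseudogenes, as set out below.

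The beta subunits were closer together, with 7 of 7 within 0.2 of 0 (48.9% of measured genes). Psmb6, the subunit with caspase-like activity, had 2310 and 2151 reads, or 102 and 112 CPM, and its ratio of 1.09 (1.03 to 1.16) was the highest among them. Psmb7, the subunit with trypsin-like activity, had 2448 and 2083 reads, or 108 CPM in each library. Psmb5, which carries the chymotrypsin-like site targeted by bortezomib, had 640 and 496 reads, or 28.3 and 25.7 CPM, and its ratio of 0.910 had an interval that included no difference (0.808 to 1.03). The 3 catalytic subunits thus differed little, with Psmb6 alone having an interval above 1. Psmb3, a structural subunit, was lowest at 476 and 355 reads (21.0 and 18.4 CPM, ratio 0.876, 0.761 to 1.01). The structural subunits Psmb1 (108 and 105 CPM), Psmb2 (68.9 and 67.0 CPM) and Psmb4 (140 and 144 CPM) had intervals that included no difference.

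**Figure D2:**
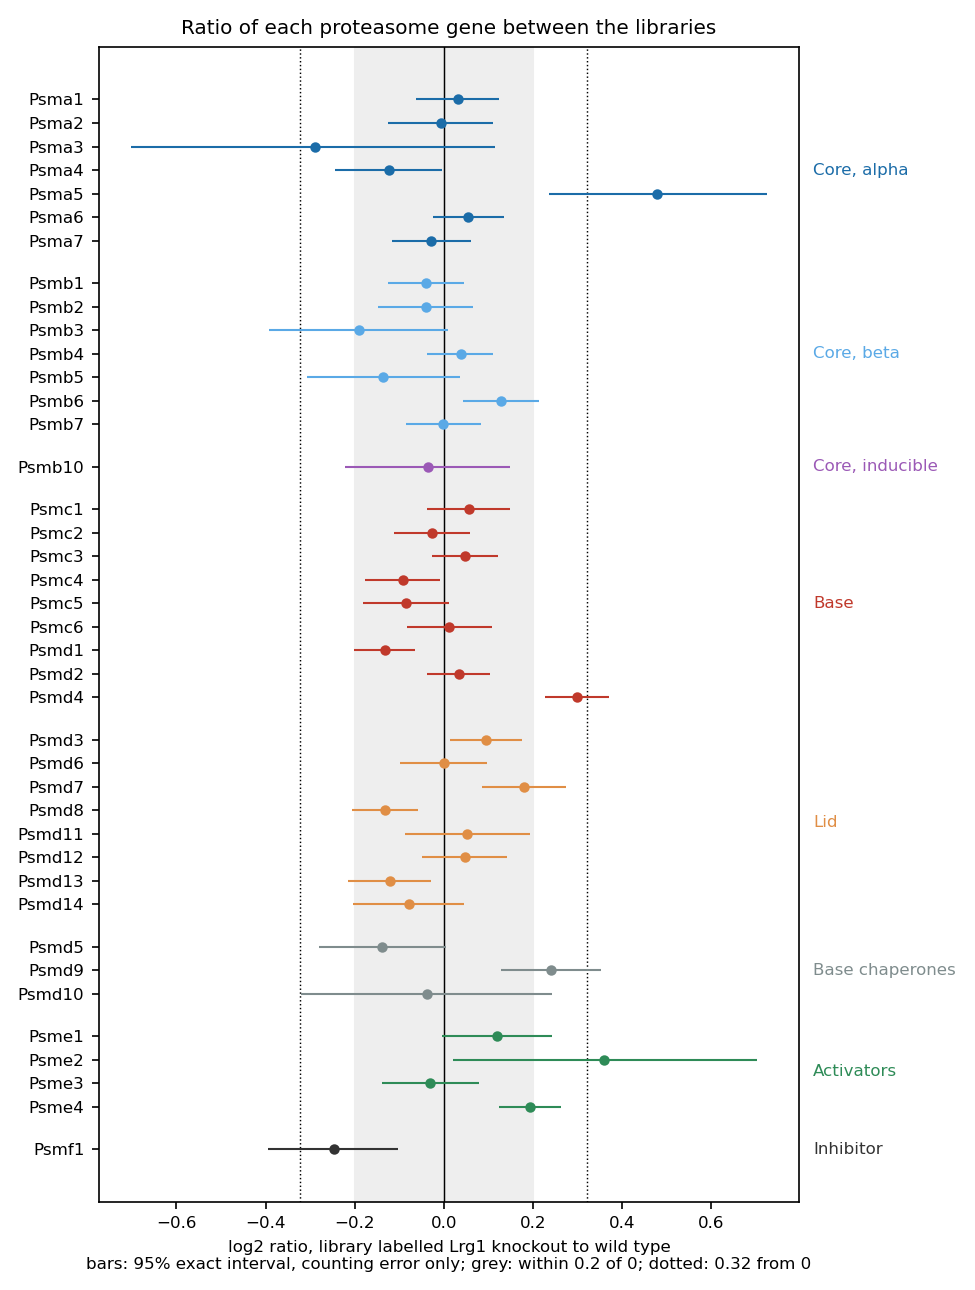
Log2 ratio of the library labelled Lrg1 knockout to wild type for each measured proteasome gene, grouped by role, with 95% exact intervals for counting error only. The grey band holds the 34 genes within 0.2 of 0, and Psma5 and Psme2 lie beyond the dotted line at 0.32.

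The 6 ATPases of the base, Psmc1 to Psmc6, were the most even group, with log2 ratios from -0.09 (Psmc4) to 0.06 (Psmc1). Psmc3, the most abundant in CPM, had 3167 and 2785 reads, or 140 and 144 CPM. Psmc4 had 2599 and 2075 reads, or 115 and 108 CPM, and alone among the ATPases had an interval below no difference (ratio 0.938, 0.885 to 0.994). Summed, the ATPases had 621 and 616 CPM, a ratio of 0.992 (0.968 to 1.02).

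The non-ATPase subunits of the base went different ways. Psmd4, a ubiquitin receptor that sits between base and lid, had 3079 and 3226 reads, more in the library of lower depth, or 136 and 167 CPM. Its ratio of 1.23 (1.17 to 1.29) was a log2 ratio of 0.30, the highest in the regulatory particle. Psmd1, a large scaffold of the base, had 3851 and 2990 reads, or 170 and 155 CPM, and a ratio below 1 (0.912, 0.869 to 0.957). Psmd2, the other large scaffold, had 155 and 159 CPM and a ratio of 1.02 (0.975 to 1.07). With TMM scaling, Psmd4 and Psmd1, both among the deepest members, therefore had intervals on opposite sides of no difference. With total-count scaling their log2 ratios were 0.38 and -0.05, the latter in place of -0.13.

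All 8 lid genes lay within 0.2 of 0 (48.9% of measured genes). The intervals of 4 included no difference (51.4% of measured genes), 2 lay below it (26.6%) and 2 above it (22.0%). Psmd7, the partner of the deubiquitinase in the lid, had 1889 and 1822 reads, or 83.4 and 94.5 CPM (ratio 1.13, 1.06 to 1.21), and Psmd3, a scaffold subunit, had 114 and 122 CPM (ratio 1.07, 1.01 to 1.13). Psmd8 had 3359 and 2610 reads, or 148 and 135 CPM (ratio 0.913, 0.867 to 0.961), and Psmd13 had 93.1 and 85.6 CPM (ratio 0.919, 0.861 to 0.981). Psmd14, the deubiquitinase that cuts the chain from the substrate, had 1195 and 963 reads, or 52.8 and 49.9 CPM, and its interval included no difference (0.869 to 1.03). The other lid genes, Psmd6, Psmd11 and Psmd12, had ratios of 1.0 (0.935 to 1.07), 1.04 (0.941 to 1.14) and 1.03 (0.967 to 1.10).

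The 3 members Psmd5, Psmd9 and Psmd10 are chaperones that help assemble the base and leave before the particle is complete. Psmd9 had 1284 and 1292 reads, or 56.7 and 67.0 CPM, a ratio of 1.18 (1.09 to 1.28). Psmd5 had 928 and 718 reads, or 41.0 and 37.2 CPM (ratio 0.909, 0.823 to 1.003), and Psmd10, also known as gankyrin, had 234 and 194 reads, or 10.3 and 10.1 CPM (ratio 0.974, 0.801 to 1.18). Psmd9 was the only one of these with an interval apart from no difference.

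Among activators, Psme4, which encodes the nuclear cap PA200, had 3348 and 3258 reads, or 148 and 169 CPM. Its ratio of 1.14 (1.09 to 1.20) lay above no difference, and most of the activators' summed reads were its own. Psme3, which forms the nuclear PA28 gamma cap, had 1535 and 1280 reads, or 67.8 and 66.4 CPM, and did not stand apart (ratio 0.980, 0.909 to 1.06). Psme1 and Psme2 encode the paired subunits of the interferon-induced PA28 cap. Psme1 had 1105 and 1022 reads, or 48.8 and 53.0 CPM (ratio 1.09, 0.997 to 1.18). Psme2 had 139 and 152 reads, 6.14 CPM (5.16 to 7.25) and 7.88 CPM (6.68 to 9.24), intervals that overlapped, and a ratio of 1.28 (1.01 to 1.63). Psmf1, which encodes PI31, a protein first described as an inhibitor of the 20S, was lower, with 923 and 662 reads, or 40.7 and 34.3 CPM (ratio 0.843, 0.761 to 0.932). The median log2 ratio of these 5 genes was 0.12.

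Psmb10, the inducible counterpart of Psmb7, had 531 and 441 reads, or 23.4 and 22.9 CPM (ratio 0.976, 0.858 to 1.11). Per kilobase of transcript its level was 17.9 and 17.4 CPM, 19.2% and 18.7% of that of Psmb7. On the scale of unshared windows set out below, these shares were 13.7% and 13.4%. Outside the members, Psmb8 had 677 and 577 reads and a log2 ratio of 0.002, while Psmb9 had 492 and 288 reads, 21.7 and 14.9 CPM (ratio 0.688, 0.592 to 0.797). Per kilobase Psmb9 stood at 12.6% of its constitutive counterpart Psmb6 and at 7.90% (13.6% and 8.56% on the scale of unshared windows). Of the 3 inducible subunits Psmb8 and Psmb10 had intervals that included no difference, and that of Psmb9 lay below it. Markers of immune cells, which carry these subunits, were low: 7 of 7 T and NK cell genes summed to 3.35 and 4.62 CPM, and 4 of 4 B cell genes to 1.99 and 2.75 CPM. All 8 Kupffer cell and macrophage genes were detected and summed to 455 and 369 CPM. The 4 genes of sinusoidal endothelium went the other way, with sums of 123 and 184 CPM (ratio 1.49, 1.42 to 1.57). Their part in these values was not tested.

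Levels of subunits per kilobase of transcript differed far more within a library than any subunit did between libraries. Among the 14 core genes the level ran from 1.94 CPM per kilobase (Psma3) to 128 (Psmb6) in wild type, with a median of 68.1, and from 1.59 to 140, with a median of 68.1, in the library labelled Lrg1 knockout. The order was nearly kept, with a Spearman rho of 0.978 for CPM between the libraries over these 14 genes, a description of 2 libraries made and counted in the same way. Most genes at the low end have close copies elsewhere. Since only reads with a single alignment entered the counts, each member's main GENCODE M21 transcript was cut into windows of 50 bases, the read length, and windows that also occur in transcripts of other genes were counted. In the coding sequence of Psma3 85.6% of windows were shared, in Psma5 79.1%, in Psmb3 70.7%, in Psme2 69.5% and in Psmb5 64.9%. For Psma3, Psma5, Psmb3 and Psmb5 the transcript sharing most was annotated as a pseudogene, and for Psme2 it was its copy Psme2b. In the wild-type library Psma3 and Psma5 had 1.94 and 9.12 CPM per kilobase, Psma2 19.7, and Psmb3 and Psmb5 27.4 and 31.4, the lowest 5 of the core. Psma2, the exception among them, shared 15.5% of its coding windows and has a transcript of 2911 bases, much of it non-coding (702 coding bases).

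Counted per 1000 unshared windows in place of bases, Psmb3 had 66.3 CPM and Psmb5 77.4 in wild type, near the core median of 77.6 on that scale, while Psma5 had 21.3 and Psma3 2.53. The 2 members higher by at least 0.32 (log2), Psma5 and Psme2, and the lowest member, Psma3, were thus among the 5 with the most shared coding sequence and among those with the fewest reads. Of the 8 measured members that shared at least 20% of the windows of the whole transcript, 3 lay more than 0.2 from 0, and of the other 32 members 3 did, Psmd4, Psmd9 and Psmf1. Alignments that were not unique were 50.3% and 58.0% of counted lines. Their part in the ratios of Psma3, Psma5 and Psme2 was not tested.

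**Figure D3:**
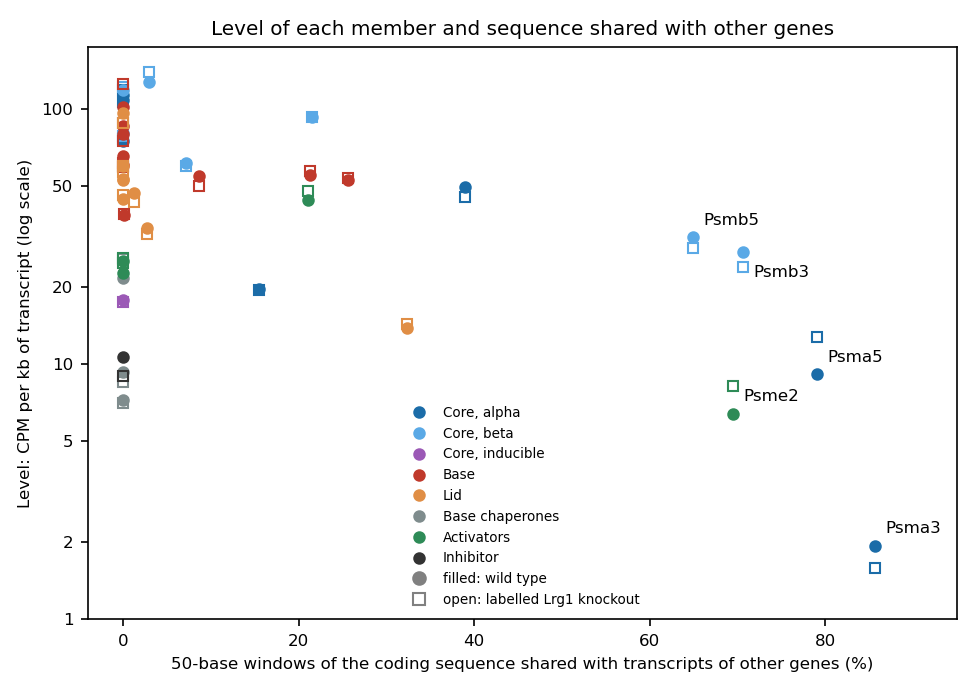
Level of each measured member in CPM per kilobase of transcript (log axis) against the share of 50-base windows of its coding sequence that occur in transcripts of other genes, in wild type (filled) and the library labelled Lrg1 knockout (open). The 5 members with over 60% of windows shared are named, and Psma3 lies lowest, at 1.94 and 1.59.

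Proteasome genes that the name rule misses had medians near 0. Within 0.2 of 0 lay 3 of 5 assembly chaperones and 11 of 15 other subunits and cofactors, beside 48.9% of measured genes. The assembly chaperones of the core, Pomp and Psmg1 to Psmg4, had a median log2 ratio of 0.08. Above 0 were 4 of 5 (48.3% of measured genes), and their summed reads had a ratio of 1.08 (1.03 to 1.13). Of the 5, 1 was higher by at least 0.32 (15.0% of measured genes), Psmg3 (295 and 325 reads, log2 ratio 0.37), and 0 were lower (16.7%). Pomp, which helps to assemble the barrel and is degraded as it matures, had 2374 and 2131 reads (log2 ratio 0.08). Psmg1 stood at 0.20 and Psmg4 at -0.19. Among 15 measured subunits and cofactors, 0 were apart by 0.32 or more and the median was -0.01. Adrm1, a ubiquitin receptor of the base, had 234 and 196 reads and a log2 ratio of -0.02. Sem1, listed as Shfm1 and a small lid subunit, stood at 0.29, the ubiquitin-binding protein Zfand5 at 0.25, and Ddi2, the protease that activates NFE2L1, at -0.29.

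Regulators of proteasome genes had a median log2 ratio of -0.13 over 12 measured genes. Nfe2l1 had 6025 and 4632 reads, or 266 and 240 CPM (ratio 0.903, 0.869 to 0.939), and Nfe2l2 stood at -0.15. Maff, a small Maf protein that pairs with both, had 257 and 53 reads, a ratio of 0.242 (0.177 to 0.327), and Mafk, another, had 550 and 284 reads (ratio 0.607, 0.524 to 0.701). Nfyb, a subunit of NF-Y, was higher, with 581 and 666 reads (ratio 1.35, 1.20 to 1.51), so that 2 of 12 were lower by at least 0.32 and 1 higher. These shares are near or below those of all measured genes, 16.7% lower and 15.0% higher.

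Upstream of the proteasome, the ubiquitin genes and ubiquitin-activating and conjugating enzymes had a median of -0.01. Of these, 2 of 15 were lower by at least 0.32 (16.7% of measured genes) and 2 higher (15.0%). Ube2g2, an E2 enzyme of degradation from the endoplasmic reticulum, had 1321 and 837 reads (ratio 0.744, 0.682 to 0.812). Rps27a (41 and 23 reads) and Ube2j2 (39 and 46 reads) had the ratios farthest from 1 on either side, with intervals that included no difference. The VCP segregase and its cofactors, which pull ubiquitin-tagged proteins from membranes and complexes, had a median of 0.05. Here 1 of 11 was lower by at least 0.32 (16.7% of measured genes) and 1 higher (15.0%). These were Ubxn4 at -0.40 and Ubxn1 at 0.41, and Ufd1, listed as Ufd1l, followed at 0.22. Vcp itself had 2040 and 1704 reads and a log2 ratio of -0.03. Peptide transport and inducible proteasome genes had a median of -0.05, with Psmb9 at -0.54, Psme2 at 0.36 and the transporter subunit Tap2 at -0.21.

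Set beside other large assemblies, the proteasome was not alone in its evenness. The 8 genes of the CCT chaperonin, which folds actin and tubulin, all lay within 0.2 of 0 (48.9% of measured genes), with a median of -0.06 and an SD of 0.07. The COP9 signalosome, whose subunits are related to those of the lid, had 7 of 9 genes within 0.2 of 0, a median of -0.11 and an SD of 0.21. The 15 measured genes of endoplasmic reticulum-associated degradation, which hand their substrates to the proteasome, had a median of -0.10 but an SD of 0.85. In that list 6 of 15 were lower by at least 0.32 (16.7% of measured genes), while 0 were higher by as much (15.0%). Ubxn4, counted above with the VCP cofactors, is 1 of these 6. At least 2-fold lower were 3 (2.50%), down to -2.59. Of 59 measured cytosolic ribosomal protein genes, many with pseudogenes, 35 lay within 0.2 of 0, with a median of 0.14. Whether these lists differ from the proteasome was not tested, since 1 library per group allows no test.

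**Figure D4:**
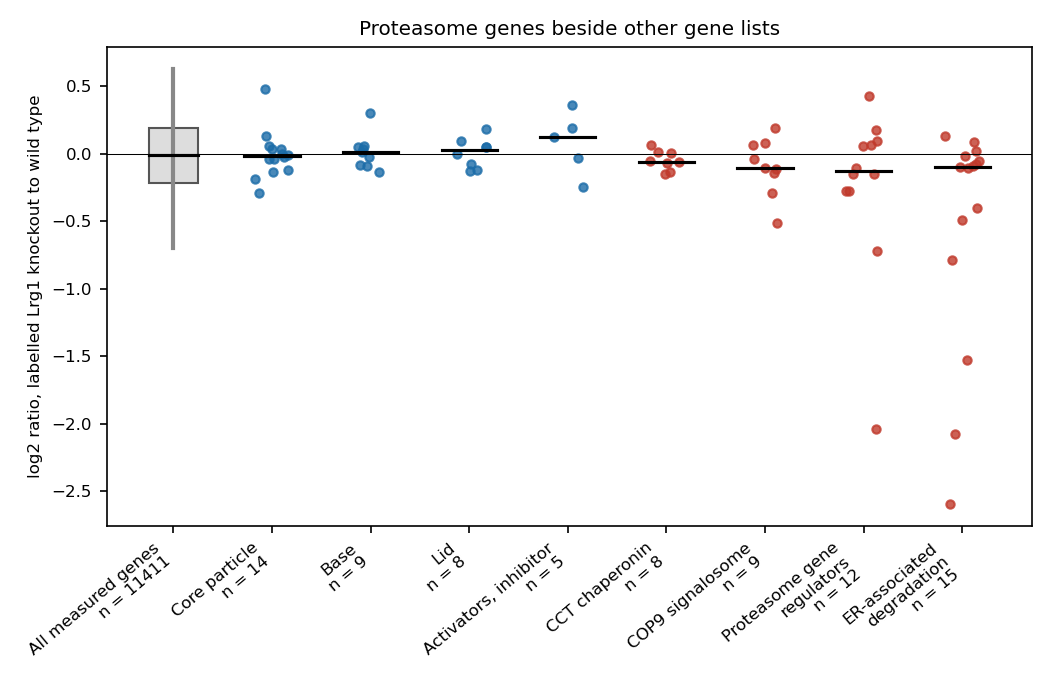
Log2 ratio of the library labelled Lrg1 knockout to wild type for all measured genes (box from the 25th to the 75th percentile, whisker from the 5th to the 95th) and for each measured gene of the named lists (points), with medians as black lines. Core, base and lid genes lie from -0.29 to 0.48, and the list of endoplasmic reticulum-associated degradation reaches -2.59.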

How the data were processed

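RNA-seq of mouse liver gave 1 library per genotype. Per the labels' protocols, poly(A) RNA of about 500 ng total RNA was made into stranded libraries and read as single ends of 50 bases. Per the submitters' processing notes, bcl2fastq, TopHat2 and HTSeq were used with build mm9. The annotation, strand setting and tool versions count as not given in the sources used here. As deposited, the files hold unnormalized read counts for each gene symbol. Lines without a gene stayed out of the totals: reads outside genes were 14.0% and 14.4% of unique reads, reads in more than 1 gene 0.231% and 0.234%.

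Counts were scaled by TMM (edgeR 4.0.16, R 4.3.3; factors 0.972 and 1.03). Log2 ratios used a prior count of 0.5. Ratios have exact Clopper-Pearson intervals at 95% given the summed count, and CPM exact Poisson intervals. Reads carry no molecular identifiers, so both cover counting error only. Genes needed 50 reads summed over both libraries. The steps were tested on simulated counts. The text names every measured member, the 3 measured genes farthest from 0 in each pathway list, and Nfe2l1, Pomp, Adrm1, Psmb8 and Psmb9; Nfe2l2 and Vcp were added after their values were seen. Members and lists were chosen with earlier results of these data known. Lengths and windows come from the principal coding transcript in GENCODE M21 (GRCm38), used for sequence only. Alternatives covered scaling (DESeq2 1.42.0 size factors, total counts), prior count, minimum reads, fold, thinning and the members included. Other steps used Python 3.11.15 with scipy 1.17.1, numpy 2.4.6, matplotlib 3.10.9 and pandas 2.3.3.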

Additional observations from a re-analysis of the deposited data

Results flagged for a closer look

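Alignments that were not unique are not part of the per-gene counts and form a large signal that no comparison here uses, far above what 0 counts would allow. In the wild-type library they were 50.3% of counted lines (27554856 lines), and 58.0% in the library labelled Lrg1 knockout (30368128 lines). How many of them came from proteasome genes or their pseudogenes is not analysed here.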

How the results depend on the processing

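The medians of core, base, lid, activators with inhibitor and all members each moved by less than the counting error of a typical member under every alternative run. That yardstick is the error of 1 gene and is wide for a median. With total-count scaling the base median went from 0.01 to 0.09 and the lid median from 0.02 to 0.11. Total-count scaling added 0.08 (log2) to each member and turned the sign of 11 of 40, leaving 11 below 0 and 4 higher by at least 0.32, which adds Psmd4 and Psmd9. Total count without the 20 most abundant genes left 12 below 0. A minimum of 1 or of 10 reads gave 4 members higher by at least 0.32 among 42, through Psma8 and Psmc3ip. Thinning the deeper library gave 1 member lower by at least 0.32, Psma3 at -0.36. At 1.5-fold and at 2-fold 0 members were higher. Without the 8 members that share at least 20% of their windows, an alternative chosen after seeing the data, 0 of 32 were higher by at least 0.32 and the median of activators with inhibitor was 0.04 in place of 0.12. Depth limits Psma3, Psme2, Psmd10 and Psma5, whose intervals are widest. Levels per kilobase depend on the transcript chosen: per kilobase of coding sequence Psma2 had 81.5 CPM in wild type in place of 19.7. No paired analysis was possible because each group has 1 library.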
